A study of Mus musculus with 24 samples.

Results

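The synaptic vesicle and release machinery was followed through 12 groups of mouse neocortical neurons. The genes were matched by symbol, and the choice was made with earlier results of these data known. They are synaptotagmins (Syt), synaptophysin (Syp), synaptoporin (Synpr), synapsins (Syn), synaptogyrins (Syngr), Sv2 proteins, synaptosomal-associated proteins (Snap), Vamp proteins, syntaxins (Stx), syntaxin-binding proteins (Stxbp), complexins (Cplx), Rab3 GTPases, Rims, Unc13 proteins, Doc2 proteins, the vesicular glutamate transporters Slc17a6 and Slc17a7, and Synj1, Rph3a, Dnm1, Amph, Bsn, Pclo, Nsf and Napb. Of 92 annotated symbols that match, 72 were among the 9767 genes of the expression table, and these 72 are the members. The table lists genes that reached 10 FPKM in at least 1 group. The other 20 symbols, among them Syt2, Syt9, Sv2c, Doc2b, Cplx4 and Unc13c, were not listed and have no value here.

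Cux2-lineage callosal projection neurons (Cux2 CPNs) and Tle4-lineage corticothalamic projection neurons (Tle4 CThPNs) were sorted for tdTomato fluorescence from somatosensory and motor cortex at 6 ages, 4 early (E18.5, P1, P3 and P7) and 2 late (P21 and P48). Cux2 CPNs came from Cux2-CreERT2:Ai14 mice and Tle4 CThPNs from Tle4-2A-CreERT2:Ai14 mice, with the strain labelled C57BL/6 and given in the methods as a mixed C57BL/6J background. Ai14 is a reporter that makes tdTomato after Cre recombination, and both lines received 4-hydroxytamoxifen through the pregnant dam on the day before the earliest age. Each group was sequenced as 2 libraries, each of pooled animals of both sexes from 2 litters, and the deposited table holds 1 FPKM per gene and group, which the authors computed over both libraries. FPKM are fragments scaled by transcript length and by mapped fragments, so levels can be set side by side between genes. With 1 value per group there is no replicate check: no error, test or depth of a single group can be given, and every statement describes these libraries. In sorted bulk samples, fewer cells of a type and less RNA per cell cannot be told apart.

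Synaptic vesicles are filled with transmitter, held in a pool by synapsins, docked and primed at the active zone by Rim and Unc13 proteins, and fused with the plasma membrane by the SNARE complex of Snap25, syntaxin and Vamp proteins. Synaptotagmins couple this fusion to calcium, complexins regulate the SNAREs, Nsf takes the spent SNARE complex apart, and dynamin, amphiphysin and synaptojanin retrieve the membrane. Cortical pyramidal neurons release glutamate, which is loaded into vesicles by the products of Slc17a7 (VGLUT1) and Slc17a6 (VGLUT2). In rodent cortex, most synapses form after birth, during the ages covered by the series.

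The genes that define the lines marked their own class. Cux2 was 31.0 to 73.0 FPKM in the Cux2 CPN groups and 0.608 to 4.65 FPKM in the Tle4 CThPN groups, and Tle4 was 2.02 to 7.74 and 75.0 to 165 FPKM. Interneuron genes were higher in the Cux2 CPN groups, and the study's methods name some labelled interneurons in that line. By single-cell sequencing of both lines together, the authors found few cells with interneuron markers and judged their effect minimal. Gad1, which makes GABA, was 18.1 to 34.2 FPKM in Cux2 CPNs and 0.971 to 6.95 FPKM in Tle4 CThPNs. Of 15 interneuron markers, 12 were listed (Adarb2, Slc32a1 and Sp9 were not). Their summed FPKM was 571 to 816 early and 2787 to 3074 late in Cux2 CPNs, and 458 to 1379 and 395 to 416 in Tle4 CThPNs. Most of the late Cux2 sum was Cck, a neuropeptide gene that pyramidal neurons also use, and without the neuropeptide genes Cck, Npy, Sst and Vip the remaining 8 summed to 191 to 286 early and 60.5 to 91.6 late in Cux2 CPNs, and to 9.26 to 13.6 and 22.6 to 39.4 FPKM in Tle4 CThPNs. Astrocyte markers (7 of 10 listed, without Aqp4, Gfap and Sox9) summed to 11.3 to 28.8 early and 127 to 156 FPKM late in Cux2 CPNs, against 24.3 to 47.7 and 410.1 to 517 FPKM in Tle4 CThPNs. Oligodendrocyte markers (7 of 12 listed, without Olig2, Pdgfra and Sox10 among others) went from 16.3 to 26.3 to 161 to 218 FPKM and from 12.5 to 31.6 to 117 to 299 FPKM. Genes known to respond to tissue dissociation (12 of 16 listed, without Atf3, Fosb, Hspa1a and Hspa1b) went from 102 to 142 to 1425 to 2610.2 FPKM in Cux2 CPNs and from 133 to 191 to 1613 to 1776 FPKM in Tle4 CThPNs. The sources differ on the papain digestion: the methods describe a stronger one at P21 and P48 than at earlier ages, and the sample labels give 1 concentration for all ages. If it was stronger, age and digestion cannot be told apart. The part of these genes in the differences below was not tested.

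To ask how the release machinery changed with age, the mean of log2(FPKM + 1) over P21 and P48 (late) was set against that over E18.5 to P7 (early). A member was said to rise or fall where this change reached 1.5, and all 4 early and 2 late values enter each mean. In Cux2 CPNs, 24 of the 72 members rose, against 10.9% of all listed genes, and in Tle4 CThPNs 22 rose, against 9.19%. The same 19 members rose in both classes: Slc17a7, Sv2b, Syp, Syngr1, Syn1, Syn2, Snap25, Vamp1, Nsf, Napb, Stxbp5l, Stxbp6, Syt1, Syt12, Syt13, Rph3a, Bsn, Rims2 and Dnm1. Over the table, 6.55% of genes rose in both. With E18.5 left out of the early ages, the changes of Syp, Syn1 and Rph3a in Tle4 CThPNs were 1.41, 1.42 and 1.30, under the limit. Falls were few. Syt6 fell in Cux2 CPNs (7.04% of the table fell), Rab3d and Syn3 fell in Tle4 CThPNs (5.46%), and no member fell in both (3.68%). The median change over all members was 0.89 in Cux2 CPNs and 1.08 in Tle4 CThPNs on the log2(FPKM + 1) scale, where the median of the table was 0.00 in both. Summed over the members, FPKM went from 3019.8 at E18.5 to 15762 at P48 in Cux2 CPNs, and from 3687 to 14522 in Tle4 CThPNs. As a share of the summed FPKM of genes longer than 300 nt, this was 0.553% to 2.70% in Cux2 CPNs and 0.745% to 2.53% in Tle4 CThPNs.

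**Figure D1:**
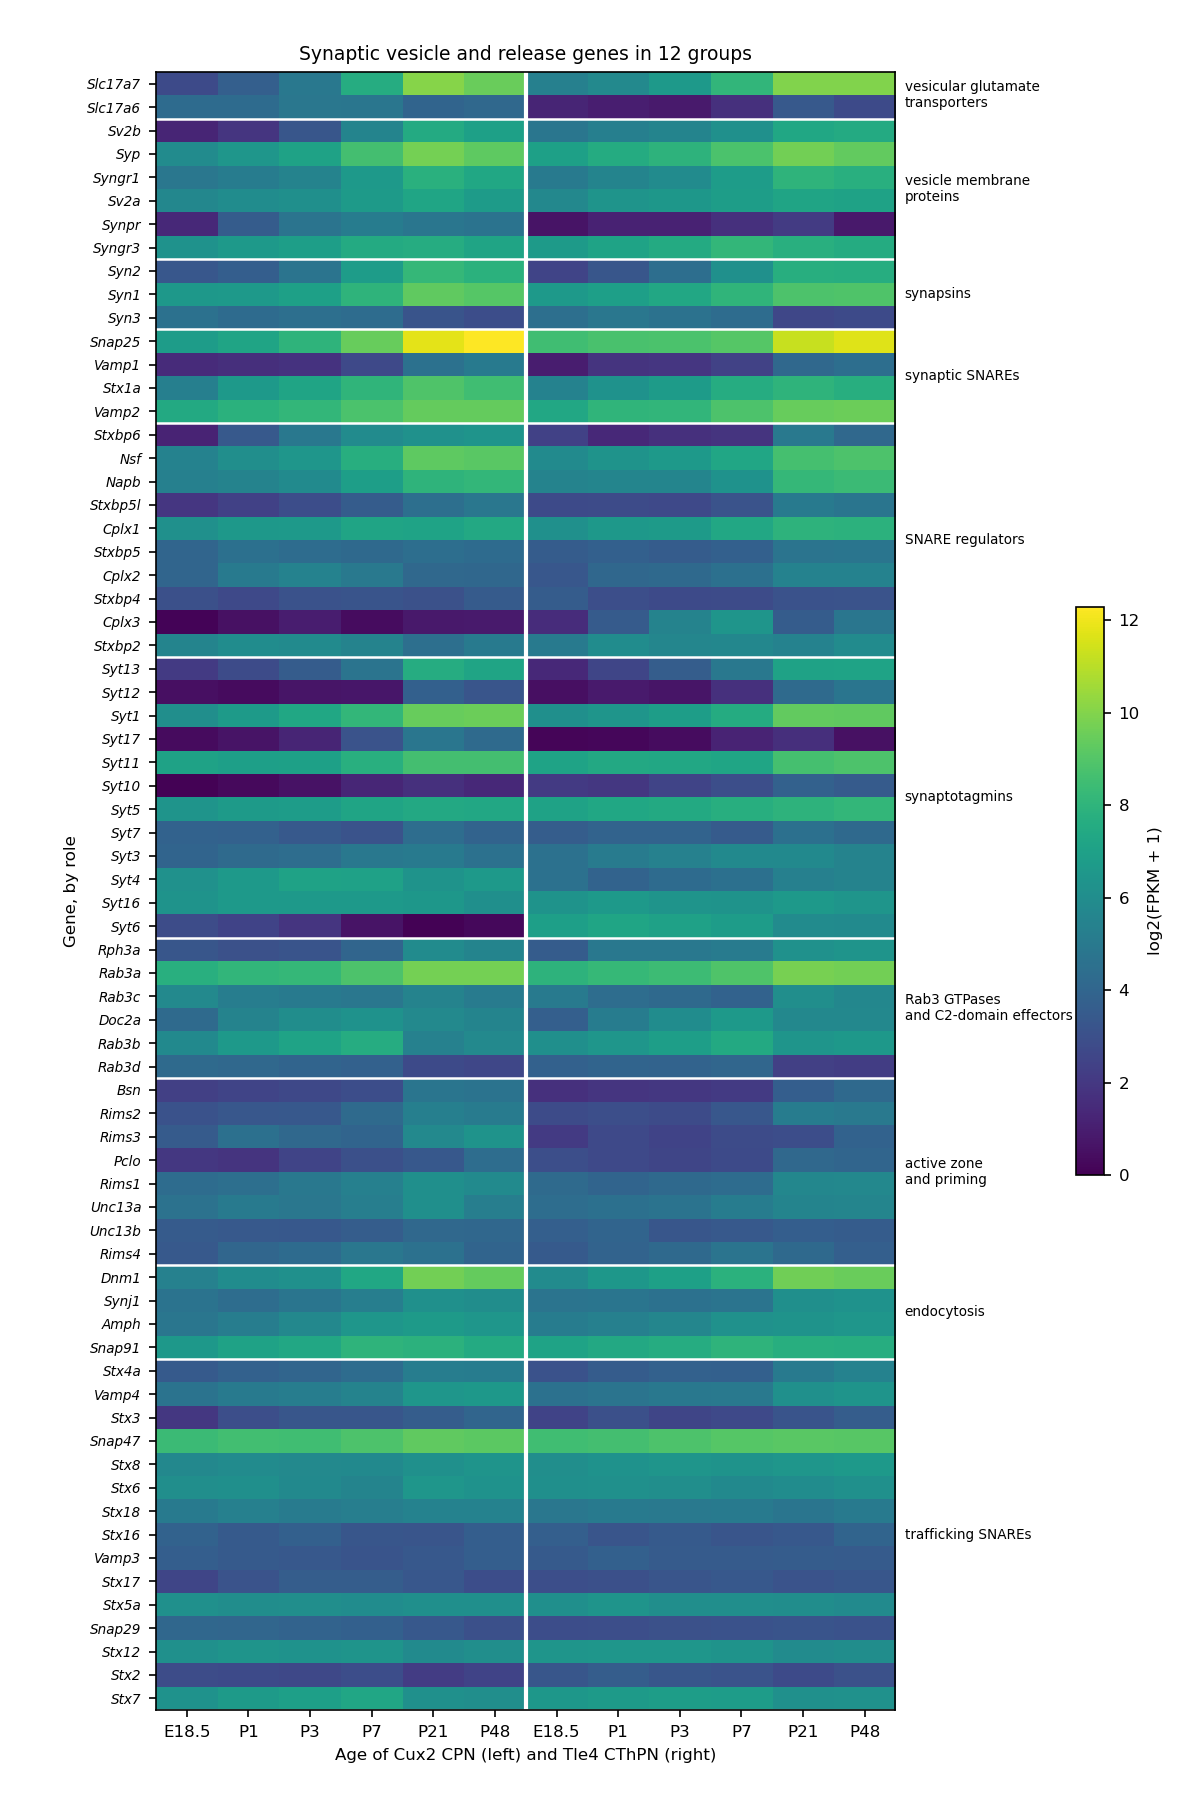
Each row is 1 of 70 members, ordered by role and by its change with age. Columns are the 6 ages of Cux2 CPN (left) and Tle4 CThPN (right), and colour is log2(FPKM + 1), 1 pooled value per group. The brightest row is Snap25, which reached 5026 FPKM at P48 in Cux2 CPNs, and the block of trafficking SNAREs at the bottom had a median change of 0.09 and 0.07.

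**Figure D2:**
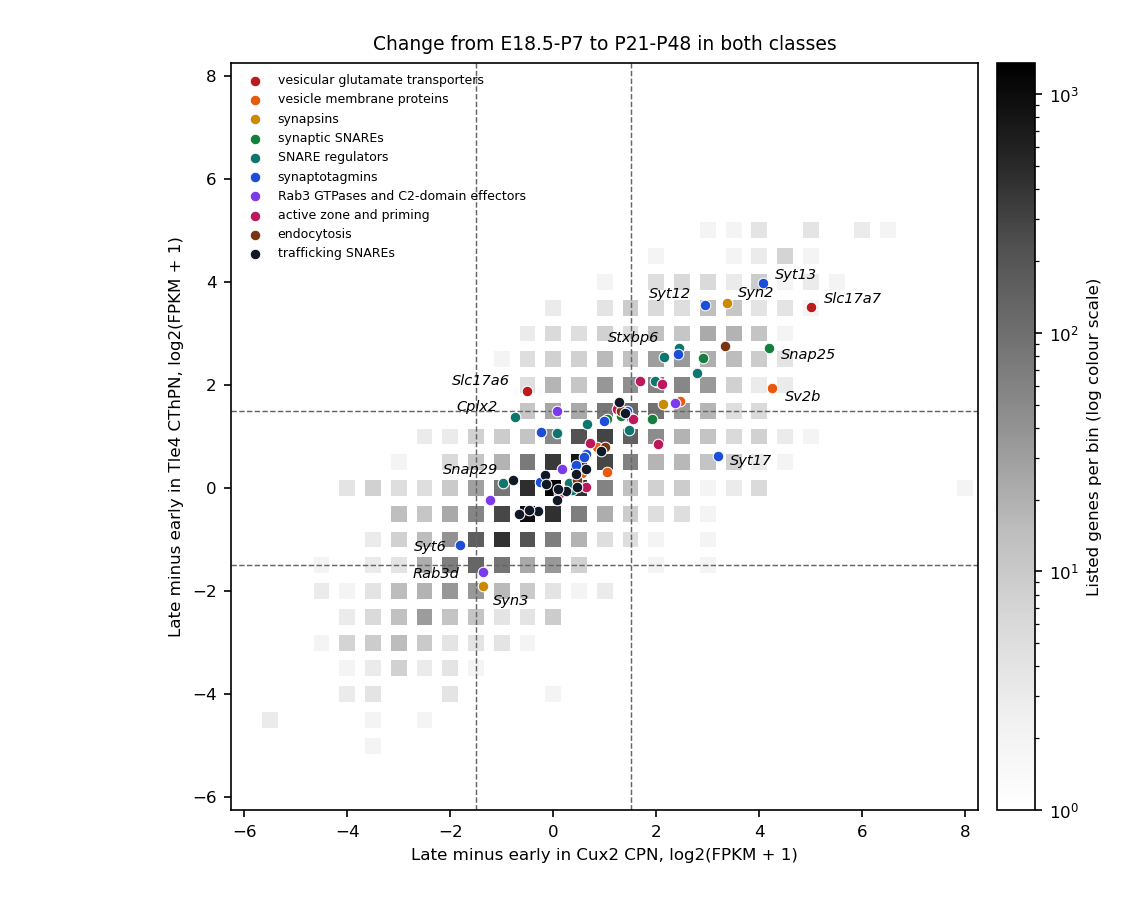
The change from early (E18.5 to P7) to late (P21 and P48) on the log2(FPKM + 1) scale in Cux2 CPN (x axis) is plotted against that in Tle4 CThPN (y axis). Coloured points are the 72 members by role, grey squares count all 9767 listed genes in bins of 0.5, and dashed lines mark 1.5 in each direction. The 19 members that rose in both classes lie in the upper right corner, and Slc17a6, Cplx2 and Snap29 lie on opposite sides of 0 in the 2 classes.

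The 2 vesicular glutamate transporters among the members differed in their course. Slc17a7 (chromosome 7, 52419291 to 52431508 on mouse build NCBIM37) was listed at 5.79, 12.4, 29.8, 194, 1063 and 713 FPKM in Cux2 CPNs from the youngest age to the oldest, the order used throughout, and at 39.9, 54.3, 97.0, 275, 1016 and 1003 FPKM in Tle4 CThPNs. It rose by 5.00 in Cux2 CPNs, the largest rise of any member in that class, and by 3.51 in Tle4 CThPNs. At E18.5 its level in Tle4 CThPNs was 6.89 times that in Cux2 CPNs, at P7 1.42 times, and at P21 0.955 times. Slc17a6 (chromosome 7, 58877200 to 58926495) was listed at 18.4, 18.7, 28.4, 27.6, 14.5 and 17.0 FPKM in Cux2 CPNs and at 1.41, 1.05, 0.844, 2.31, 9.94 and 5.74 FPKM in Tle4 CThPNs. Every Cux2 CPN value lay above every Tle4 CThPN value, and the ratio at the same age was 33.6 at P3 and 1.46 at P21. With age, both late values of Cux2 CPNs were below their 4 early values (a change of -0.51), whereas both late values of Tle4 CThPNs were above theirs (a rise of 1.87). Slc17a6 therefore made up 76.1% of the summed FPKM of the 2 transporters at E18.5 in Cux2 CPNs, 48.8% at P3, 12.4% at P7 and 2.32% at P48. In Tle4 CThPNs it made up 3.41% at E18.5 and 0.569% at P48. Slc17a8, a further vesicular glutamate transporter outside the symbol rule, is not in these sums. It was 13.7 and 7.69 FPKM at P21 and P48 in Tle4 CThPNs, above Slc17a6, and at most 2.80 FPKM in Cux2 CPNs.

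The 250 bases before the annotated starts of both transporter genes are shown because the 2 genes exchanged places in Cux2 CPNs. They are RefSeq sequence on build GRCm38.p6, read 5′ to 3′ on the coding strand (+ for both genes), and Slc17a6 has 2 annotated starts. Capitals mark the GC box GGGCGG, on either strand, and the E-box CAGATG.
Slc17a7, chr7:45163671-45163920: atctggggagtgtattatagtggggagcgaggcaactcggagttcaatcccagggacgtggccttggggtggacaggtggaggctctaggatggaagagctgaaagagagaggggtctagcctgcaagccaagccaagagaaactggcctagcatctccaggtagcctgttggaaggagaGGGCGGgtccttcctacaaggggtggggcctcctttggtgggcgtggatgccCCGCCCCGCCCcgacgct
Slc17a6, first start, chr7:51621580-51621829: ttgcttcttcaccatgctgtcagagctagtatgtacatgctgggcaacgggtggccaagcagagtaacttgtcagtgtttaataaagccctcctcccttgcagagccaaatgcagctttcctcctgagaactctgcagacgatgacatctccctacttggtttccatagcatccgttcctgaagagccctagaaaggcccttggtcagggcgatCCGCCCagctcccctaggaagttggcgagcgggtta
Slc17a6, second start, chr7:51624387-51624636: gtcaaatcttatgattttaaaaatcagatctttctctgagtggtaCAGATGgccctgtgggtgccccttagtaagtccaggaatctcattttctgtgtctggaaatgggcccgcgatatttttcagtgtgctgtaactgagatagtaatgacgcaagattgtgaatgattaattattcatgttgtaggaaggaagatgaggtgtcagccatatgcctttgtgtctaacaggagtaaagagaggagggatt
The Slc17a7 sequence holds 3 GC boxes, of which the last 2 overlap by 1 base. The first Slc17a6 sequence holds 1 GC box, and the second holds 1 E-box and no GC box. Over all RefSeq promoters of this length, 32.7% hold a GC box and 14.4% this E-box, and among promoters of listed genes 58.6% and 9.67%. A match describes the letters only.

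Of the vesicle membrane proteins, Syp, Syngr1 and Sv2b rose in both classes, and the median change of the 6 members was 1.53 in Cux2 CPNs and 1.24 in Tle4 CThPNs. Sv2b, a glycoprotein of the vesicle membrane, was listed at 1.44, 2.67, 8.84, 45.6, 179.6 and 128 FPKM in Cux2 CPNs and at 27.7, 39.1, 46.5, 70.0, 157 and 182 FPKM in Tle4 CThPNs. At E18.5 the Tle4 CThPN level was 19.2 times the Cux2 CPN level, and from P7 the 2 classes were within 1.53 times of each other. Its paralog Sv2a was already present at E18.5, at 50.0 and 52.4 FPKM, and its change of 0.86 and 0.79 did not reach the limit. Syngr1 rose by 2.02 and 2.05, while its paralog Syngr3 changed by 0.55 and 0.29. Syp, the most abundant of this group at P21 and P48, reached its highest value at P21 in both classes, and its rise was 2.45 in Cux2 CPNs and 1.69 in Tle4 CThPNs. Synpr, a close relative of synaptophysin, was listed at 1.67, 10.8, 25.6, 34.9, 27.3 and 24.7 FPKM in Cux2 CPNs and at 0.585, 1.26, 1.26, 2.27, 3.38 and 0.816 FPKM in Tle4 CThPNs. No Tle4 CThPN value of Synpr exceeded 3.38 FPKM, and from P1 on no Cux2 CPN value was under 10.8 FPKM.

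Among the synapsins, which tether vesicles in the reserve pool, Syn1 and Syn2 rose in both classes and Syn3 went down. Syn2 was listed at 9.20, 11.9, 25.5, 109, 291 and 229 FPKM in Cux2 CPNs and at 4.80, 8.83, 20.6, 71.4, 209 and 203 FPKM in Tle4 CThPNs, a rise of 3.38 and 3.58 whose largest step fell between P3 and P7. Syn3 was listed at 23.1, 18.6, 21.8, 19.5, 8.24 and 6.56 FPKM in Cux2 CPNs and at 21.7, 28.3, 24.1, 19.2, 5.09 and 5.85 FPKM in Tle4 CThPNs. Both late values were below all 4 early values in both classes, and the change was -1.37 and -1.90, past the limit in Tle4 CThPNs only. Syn1, the most abundant synapsin gene in every group, rose by 2.13 and 1.63, from 92.7 to 533 FPKM in Cux2 CPNs and from 98.3 to 479.6 FPKM in Tle4 CThPNs. Syn3 thus went from 18.47% to 0.853% of the summed synapsin FPKM in Cux2 CPNs and from 17.4% to 0.850% in Tle4 CThPNs, while Syn2 went from 7.36% to 29.8% and from 3.84% to 29.5%.

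The promoter of Syn1 is shown because it was the single member promoter with a match to either of 2 motifs known from neuronal promoters, the left part of the RE1 element (TTCAGCACC), which the repressor REST binds, and the cAMP response element (TGACGTCA). Both are in capitals in the 250 bases before the start, 5′ to 3′ on the coding strand (-) of GRCm38.p6.
Syn1, chrX:20920919-20921168: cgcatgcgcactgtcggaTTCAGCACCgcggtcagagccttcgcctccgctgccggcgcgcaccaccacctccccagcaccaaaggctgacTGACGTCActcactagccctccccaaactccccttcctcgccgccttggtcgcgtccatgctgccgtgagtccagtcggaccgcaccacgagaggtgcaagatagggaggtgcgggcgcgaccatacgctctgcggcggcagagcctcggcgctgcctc
On both strands of all 32851 RefSeq promoters of this length, 0.301% held the first and 1.55% the second, and among promoters of listed genes 0.367% and 2.80%. Of the 72 members, 56 were matched in the promoter table, with 74 promoters. Of these 74, 42 (56.8%) held a GC box, 5 the TATA box core TATAAA, 2 the Egr site GCGTGGGCG and 6 the E-box CAGATG. The shares of all promoters were 32.7%, 12.4%, 0.536% and 14.4%, and among promoters of listed genes 58.6%, 5.84%, 1.01% and 9.67%. These shares are a description, with no test.

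The synaptic SNAREs held the most abundant member of all. Snap25 (chromosome 2, 136539189 to 136608164), a SNARE of the plasma membrane, was listed at 111, 145, 253, 689, 3524 and 5026 FPKM in Cux2 CPNs and at 364, 427, 446, 534, 2495 and 3324 FPKM in Tle4 CThPNs. At E18.5 its Tle4 CThPN level was 3.28 times that of Cux2 CPNs, and at P48 its Cux2 CPN level was 1.51 times that of Tle4 CThPNs, the order having turned between P3 and P7. Its rise was 4.18 in Cux2 CPNs and 2.71 in Tle4 CThPNs. Snap25 supplied 3.68% of the summed FPKM of all members at E18.5 and 31.9% at P48 in Cux2 CPNs, and 9.89% and 22.9% in Tle4 CThPNs. Without it, the members' share of the long genes still went from 0.533% to 1.84% and from 0.671% to 1.95%. Vamp2, the main vesicle SNARE of the forebrain, was listed at 177, 230.3, 286, 450.3, 674 and 660.1 FPKM in Cux2 CPNs and at 164, 260.3, 276, 462, 699 and 730.2 FPKM in Tle4 CThPNs. The classes were close at every age, and its change of 1.31 and 1.39 stayed under the limit. Vamp1 rose by 2.90 and 2.52 but remained a small part of the pair, 4.66% of the summed FPKM of Vamp1 and Vamp2 at P48 in Cux2 CPNs and 2.81% in Tle4 CThPNs. Stx1a, a SNARE of the plasma membrane, rose by 1.91 in Cux2 CPNs and changed by 1.33 in Tle4 CThPNs, and without E18.5 the first was 1.43, under the limit.

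**Figure D3:**
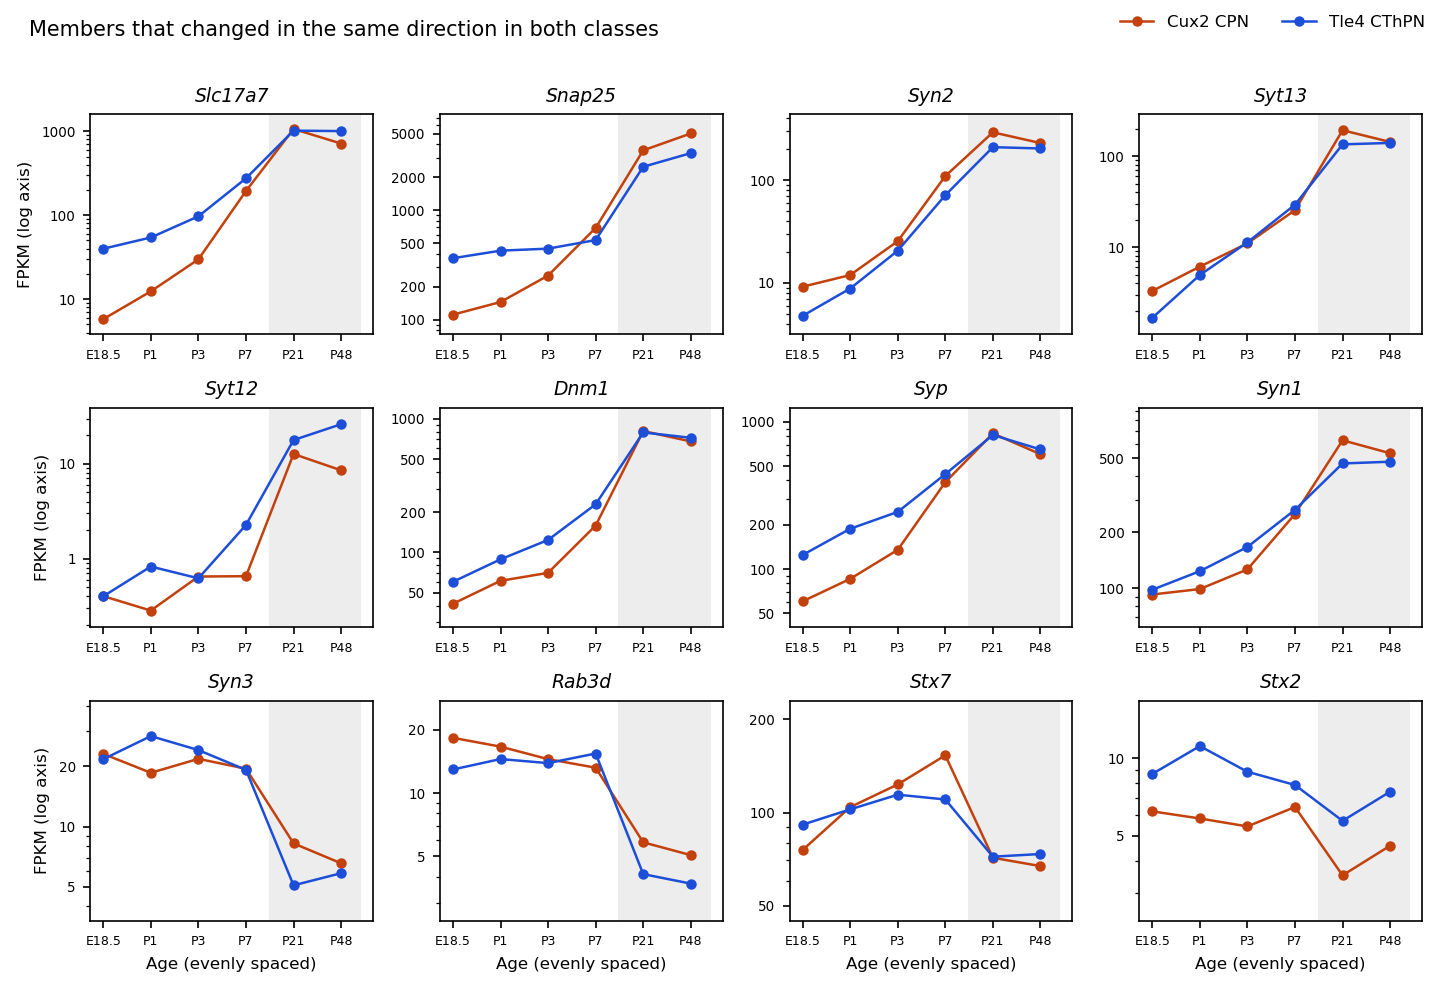
FPKM (log axis) of 12 members at the 6 ages, evenly spaced, in Cux2 CPN (orange) and Tle4 CThPN (blue), 1 pooled value per point, with P21 and P48 shaded. Slc17a7, Snap25, Syp and Dnm1 started lower in Cux2 CPNs and reached similar or higher values by P21. Syn3, Rab3d, Stx7 and Stx2 were lower at P21 and P48 than at any earlier age in both classes.

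Of the 11 SNARE regulators, Nsf, Napb, Stxbp5l and Stxbp6 rose in both classes and no other rose in either. Nsf, the ATPase that recycles SNARE complexes, rose by 2.78 and 2.24, and Napb, its adaptor, by 2.16 and 2.54. Stxbp6 (amisyn), a syntaxin-binding protein, was listed at 1.36, 9.70, 28.9, 59.8, 74.1 and 82.2 FPKM in Cux2 CPNs and at 4.24, 1.71, 2.29, 2.56, 30.4 and 16.7 FPKM in Tle4 CThPNs. Cux2 CPNs climbed from P1 on, whereas the Tle4 CThPN values stayed at or below 4.24 FPKM until P7 and were 30.4 FPKM at P21. The complexins, which bind the assembled SNARE complex, divided by class. Cplx1 was the most abundant in all groups and changed by 0.66 and 1.25. Cplx2 was listed at 15.0, 32.1, 42.6, 30.2, 17.0 and 16.0 FPKM in Cux2 CPNs and at 9.25, 16.4, 17.5, 22.5, 42.3 and 42.1 FPKM in Tle4 CThPNs. Its Cux2 CPN values peaked at P3, and its Tle4 CThPN values were highest at P21 and P48. Cplx3 (chromosome 9, 57447826 to 57454088) was listed at 0.0789, 0.461, 0.990, 0.333, 0.820 and 0.852 FPKM in Cux2 CPNs and at 1.95, 10.7, 44.6, 82.9, 11.1 and 27.2 FPKM in Tle4 CThPNs. It never reached 1 FPKM in Cux2 CPNs, and in Tle4 CThPNs it peaked at P7, where it made up 31.0% of the summed complexin FPKM.

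The 12 listed synaptotagmins include the member with the largest rise common to both classes and the one with the widest lasting class difference. Syt13, a synaptotagmin that does not bind calcium, was listed at 3.31, 6.12, 11.0, 25.5, 192 and 143 FPKM in Cux2 CPNs and at 1.68, 4.95, 11.3, 29.3, 134 and 139 FPKM in Tle4 CThPNs. Its rise was 4.07 and 3.97, with the step between P7 and P21 the largest in each. Syt12 was listed at 0.401, 0.282, 0.646, 0.651, 12.7 and 8.54 FPKM in Cux2 CPNs and at 0.400, 0.823, 0.619, 2.26, 17.8 and 26.2 FPKM in Tle4 CThPNs. It stayed under 1 FPKM until P7 in Cux2 CPNs, so that its rise of 2.94 on log2(FPKM + 1) understates its fold change. Syt1, the calcium sensor of fast release, rose by 2.43 and 2.60, from 65.7 to 743 FPKM and from 67.9 to 631 FPKM. Its share of all synaptotagmin FPKM went from 14.0% to 44.5% in Cux2 CPNs and from 11.2% to 35.1% in Tle4 CThPNs. Syt7, a sensor of slow release, changed by 0.60 and 0.61, Syt5 by 0.63 and 0.66, and Syt16 by -0.26 and 0.11. Syt11, which does not bind calcium, changed by 1.43 and 1.49, just under the limit, from 134 to 389 FPKM and from 139.8 to 464 FPKM, and both late values were above all early values in both classes. Syt6 (chromosome 3, 103379154 to 103449490) was listed at 6.25, 4.53, 2.68, 0.552, 0.0443 and 0.183 FPKM in Cux2 CPNs and at 122, 147, 129, 111, 59.2 and 57.4 FPKM in Tle4 CThPNs. The lowest Tle4 CThPN value was above every Cux2 CPN value, and levels were lower late in both classes, with changes of -1.81 and -1.10, the first past the limit. Syt10 was listed at 0.0484, 0.236, 0.537, 1.46, 2.27 and 1.66 FPKM in Cux2 CPNs and at 3.32, 2.98, 4.67, 6.80, 13.3 and 10.7 FPKM in Tle4 CThPNs. Syt3 was listed at 14.5, 18.2, 20.1, 29.3, 32.2 and 23.4 FPKM in Cux2 CPNs and at 23.3, 34.0, 41.6, 55.6, 56.6 and 44.6 FPKM in Tle4 CThPNs. Both were higher in Tle4 CThPNs at all 6 ages; together with Syt6 they belong to a subgroup of synaptotagmins that form disulfide-linked dimers. In the other direction, Syt4 was listed at 72.3, 95.1, 136, 128, 79.0 and 98.6 FPKM in Cux2 CPNs and at 23.0, 14.2, 19.0, 21.9, 40.0 and 43.9 FPKM in Tle4 CThPNs. Its Cux2 CPN level was 7.18 times the other at P3 and 2.25 times at P48. Syt17 was listed at 0.294, 0.574, 1.39, 7.82, 27.8 and 17.9 FPKM in Cux2 CPNs and at 0.109, 0.170, 0.308, 1.34, 2.18 and 0.465 FPKM in Tle4 CThPNs. It rose by 3.19 in Cux2 CPNs and changed by 0.61 in Tle4 CThPNs, and the ratio between them widened from 2.70 at E18.5 to 38.4 at P48.

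The Rab3 GTPases, which mark vesicles for docking, shifted toward Rab3a. Rab3a was listed at 213, 269.8, 292, 467, 855 and 853 FPKM in Cux2 CPNs and at 243, 299, 341, 481, 876 and 812 FPKM in Tle4 CThPNs, with near-equal values in the classes at each age. Its change of 1.52 in Cux2 CPNs was just past the limit and that of 1.35 in Tle4 CThPNs under it. The first was 1.36 without E18.5 and 1.42 or 1.40 with groups scaled to their upper quartile or to the sum of long genes, so that the call ended under each. Rab3d was listed at 18.3, 16.6, 14.5, 13.2, 5.82 and 5.06 FPKM in Cux2 CPNs and at 12.9, 14.5, 13.9, 15.4, 4.11 and 3.70 FPKM in Tle4 CThPNs, and both late values were below all early values in each class. Rab3b climbed to 196 and 174 FPKM at P7 and was 40.8 and 84.3 FPKM at P21. Rab3c was 28.5 FPKM at P7 and 44.5 FPKM at P21 in Cux2 CPNs, and 13.4 and 66.8 FPKM in Tle4 CThPNs. Rab3a thereby made up 62.4% of the Rab3 sum at E18.5 and 90.2% at P48 in Cux2 CPNs, and 68.0% and 84.6% in Tle4 CThPNs. Rph3a (rabphilin), a Rab3 effector, rose in both classes by 2.36 and 1.65, later in Cux2 CPNs: at P1 it was 7.29 FPKM there and 29.3 FPKM in Tle4 CThPNs. Doc2a, a high-affinity calcium sensor, was highest at P7, at 77.0 and 99.0 FPKM, and changed by 0.16 and 0.37.

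Among the 8 active zone and priming genes, Bsn, a scaffold protein, and Rims2 rose in both classes, Pclo and Rims3 rose in Cux2 CPNs, and Rims1 rose in Tle4 CThPNs. Rims3 was listed at 10.4, 22.5, 17.0, 14.4, 55.1 and 79.8 FPKM in Cux2 CPNs and at 3.21, 5.61, 4.59, 6.03, 6.37 and 13.8 FPKM in Tle4 CThPNs. It was higher in Cux2 CPNs at all 6 ages, with a ratio of 2.39 at P7 and 8.64 at P21. Pclo, the partner of Bsn, changed by 1.55 and 1.33, values on either side of the limit that lie close together. The change in Cux2 CPNs was 1.05 to 1.46 under 4 of the other settings, and that of Rims1 in Tle4 CThPNs was 1.54, or 1.46 and 1.42 under the same scalings as for Rab3a. Rims4 was highest at P7 in both classes, at 28.1 and 25.4 FPKM, and made up 42.3% of the Rim sum in Tle4 CThPNs at that age and 11.2% at P48. Unc13a (Munc13-1), which primes vesicles, changed by 0.72 and 0.87, and Unc13b by 0.64 and 0.01.

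Of the 4 endocytosis genes, Dnm1 alone rose. Dnm1, the neuronal dynamin that pinches vesicles from the membrane, was listed at 41.2, 61.2, 70.3, 159, 809.6 and 677 FPKM in Cux2 CPNs and at 60.2, 88.7, 124, 229, 791 and 720.4 FPKM in Tle4 CThPNs, a rise of 3.33 and 2.75. Synj1, the phosphatase that helps to shed the clathrin coat, changed by 1.32 and 1.49, and Amph, which recruits dynamin, by 1.01 and 0.80. Snap91 (AP180), a clathrin adaptor that is not a SNARE in spite of its symbol, was highest at P7 in both classes, at 251 and 258 FPKM.

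The 15 trafficking SNAREs, which serve the Golgi, endosomes and other membranes and share the symbol patterns, changed little as a group. None rose in Cux2 CPNs and 1, Stx4a, rose in Tle4 CThPNs (1.67, or 1.48 with P21 alone as late). Their median change was 0.09 and 0.07, against 1.24 and 1.33 over the other 57 members. The Rab3 GTPases and their effectors had a median near theirs in Cux2 CPNs, 0.11, but 0.86 in Tle4 CThPNs. Snap47 was the most abundant of them, at 337, 382, 371, 470.2, 627 and 585 FPKM in Cux2 CPNs and at 373, 387, 457, 539, 572 and 556 FPKM in Tle4 CThPNs. Its change was 0.64 and 0.38, beside 4.18 and 2.71 for Snap25. Stx7, an endosomal syntaxin, was listed at 75.7, 104, 123, 153, 71.4 and 67.1 FPKM in Cux2 CPNs and at 91.4, 102, 114, 110.2, 72.0 and 73.4 FPKM in Tle4 CThPNs. Stx2 was listed at 6.22, 5.83, 5.43, 6.46, 3.50 and 4.57 FPKM in Cux2 CPNs and at 8.69, 11.2, 8.86, 7.87, 5.71 and 7.42 FPKM in Tle4 CThPNs. Both had their 2 late values below all 4 early values in each class, with changes of -0.67 and -0.51 for Stx7 and -0.48 and -0.42 for Stx2, under the limit. Vamp4, which works at the trans-Golgi network, had the largest change of this group in Cux2 CPNs, 1.40, with 1.46 in Tle4 CThPNs.

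The timing of the change was read from the 5 intervals between consecutive ages. The largest step lay between P7 and P21 for 41 members in Cux2 CPNs, against 47.0% of all listed genes, and for 43 in Tle4 CThPNs, against 56.4%. These are 56.9% and 59.7% of the members, so that in Tle4 CThPNs the share was near that of the table. In Cux2 CPNs it was 44.4% of the members against 48.1% of the table with upper quartile scaling and 45.8% against 47.6% with equal sums of long genes, where in Tle4 CThPNs it was 65.3% against 56.6% and 56.2%. The order of members and table therefore depended on the scaling in Cux2 CPNs. Between P7 and P21, 12 members rose by at least 1.5 in Cux2 CPNs (6.29% of the table) and 15 in Tle4 CThPNs (6.53%), and 1 and 3 fell by as much (4.74% and 4.34%). The 3 members that fell in Tle4 CThPNs are 4.17% of the members, near the share of the table. Both late values lay above all 4 early values for 43 members in Cux2 CPNs (31.4% of the table), 47 in Tle4 CThPNs (31.9%) and 39 in both (24.2%). Both lay below in both classes for 6 members (22.1%): Rab3d, Syn3, Syt6, Stx2, Stx7 and Stx12. In Cux2 CPNs 35 members (48.6%) were highest at P21, against 23.5% of the table, and 13 (18.1%) at P48, against 18.2%. In Tle4 CThPNs 26 (36.1%) were highest at P21, against 18.8%, and 28 (38.9%) at P48, against 20.8%. The level at P7 was also set against the late mean. It includes what was already present at E18.5, so it is not a completed part of the rise. Over the 19 members that rose in both classes, the P7 level was a median of 35.6% of the late mean in Cux2 CPNs (6.14% for Syt12 to 76.6% for Stxbp6) and 28.4% in Tle4 CThPNs (10.3% for Syt12 to 60.3% for Syp). Between P3 and P7, Slc17a7, Sv2b, Syn2, Syp and Syt17 rose by at least 1.5 in Cux2 CPNs, 6.94% of the members against 1.78% of the table. Syn2 alone of the members did so in Tle4 CThPNs, 1.39% against 0.696%, a single gene near the background. Doc2a, Rab3b, Rims4, Snap91 and Stx17 were highest at P7 in both classes, as were 5.87% of the table.

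To ask how the module differed between the classes, Cux2 CPNs were set against Tle4 CThPNs at each age. The number of members that differed by at least 1.5 was 7 at E18.5, where 5.88% of the table did so, and 12 at P1 (6.06%). It was 11 in the P3 groups (6.41%), 8 in those of P7 (6.23%), 6 in those of P21 (7.06%) and 8 in those of P48 (7.07%). These are 9.72%, 16.7%, 15.3%, 11.1%, 8.33% and 11.1% of the 72 members. At E18.5, 5 of the 7 were higher in Tle4 CThPNs, namely Slc17a7, Snap25, Sv2b, Syt6 and Syt10, and Slc17a6 and Syt4 were higher in Cux2 CPNs. Of all listed genes that differed at this age, 58.5% were higher in Tle4 CThPNs. By P21, Slc17a7, Snap25 and Sv2b no longer differed by the limit. The 6 that did, a share near that of the table, were Rims3, Synpr and Syt17 on the Cux2 side and Cplx3, Syt6 and Syt10 on the Tle4 side. Rims3, Stxbp6 and Synpr were higher in Cux2 CPNs both early and late, where 1.11% of the table was, and Cplx3, Syt6 and Syt10 were higher in Tle4 CThPNs both early and late, where 1.13% was. The early and late differences, Cux2 minus Tle4, were 2.54 and 3.26 for Synpr, 2.03 and 1.74 for Stxbp6, and 1.52 and 2.69 for Rims3. Under each of the 3 other scalings the early difference of Rims3 was just short of the limit (1.49 with median-ratio scaling), which left 2 such members. Stxbp6 fell short with other ages, at 1.34 early without P7 and at 1.26 late with P21 alone. Syt4 came next, at 2.39 and 1.06. On the other side they were -5.04 and -5.74 for Syt6, -3.74 and -3.33 for Cplx3 and -1.82 and -2.13 for Syt10, with Syt3 next at -0.86 and -0.85. Stxbp6 crossed over once, since at E18.5 its Tle4 CThPN value was 3.12 times its Cux2 CPN value. The class difference itself moved by at least 1.5 between early and late for 4 members, 5.56% against 6.67% of the table, a share near the background. It moved by 2.58 for Syt17 and 2.31 for Sv2b, toward Cux2 CPNs, and by -2.39 for Slc17a6 and -2.11 for Cplx2, toward Tle4 CThPNs. Just under the limit, Slc17a7 and Snap25 moved by 1.49 and 1.47. Interneuron markers differed between the classes alongside these genes, as given above, and their part in the differences was not tested.

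**Figure D4:**
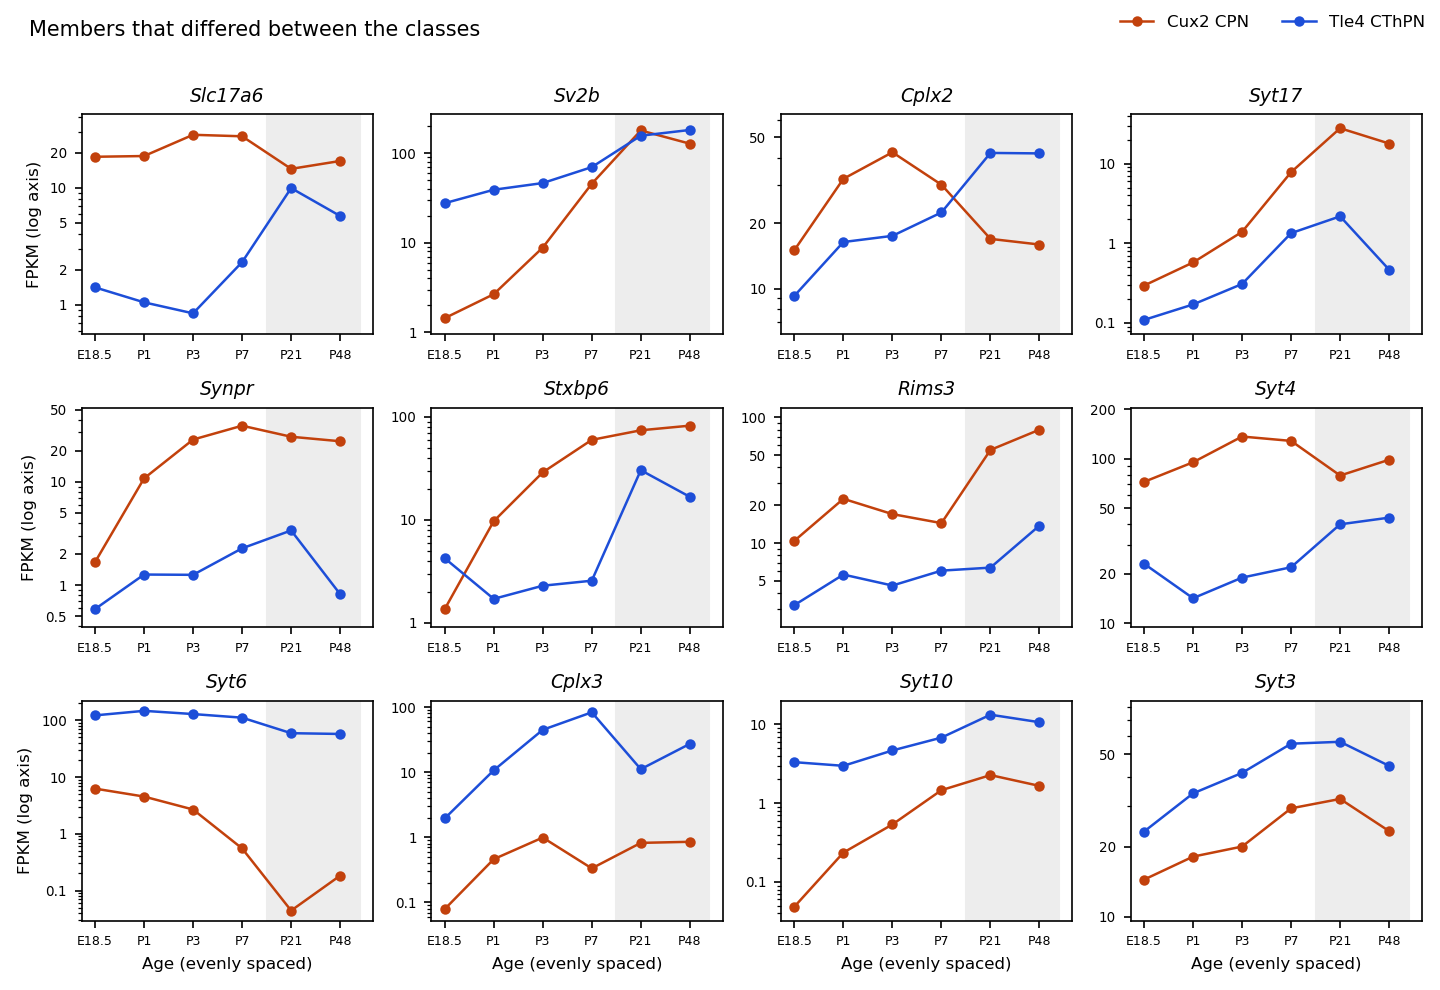
FPKM (log axis) of 12 members at the 6 ages, evenly spaced, in Cux2 CPN (orange) and Tle4 CThPN (blue), 1 pooled value per point, with P21 and P48 shaded. In the top row the class difference changed with age: Sv2b converged, Cplx2 crossed over, Slc17a6 narrowed and Syt17 widened. The middle row was higher in Cux2 CPNs except Stxbp6 at E18.5, and the bottom row was higher in Tle4 CThPNs at every age.

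Within families, the paralogs exchanged shares of the summed FPKM. The Rim sum grew from 46.6 to 186 FPKM in Cux2 CPNs and from 37.9 to 109.7 FPKM in Tle4 CThPNs. At P48, Rims3 made up 42.9% of it in Cux2 CPNs and 12.6% in Tle4 CThPNs, whereas Rims1 made up 31.3% and 48.4%. For the Sv2 pair, Sv2b went from 2.80% to 54.7% in Cux2 CPNs and from 34.6% to 57.1% in Tle4 CThPNs. Syngr1 went from 26.7% to 53.1% of the synaptogyrin pair and from 23.3% to 53.5%, much alike in both classes. Among the synaptotagmins, Syt6 was 20.1% of the sum in Tle4 CThPNs at E18.5 and 3.19% at P48, and Syt4 was 20.2% in Cux2 CPNs at P3 and 5.90% at P48. Syt11 stayed between 17.1% and 28.5% in all 12 groups. Unc13a went from 69.8% to 70.0% of the Unc13 pair in Cux2 CPNs and from 62.5% to 81.1% in Tle4 CThPNs, and was 80.0% in both at P21.

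**Figure D5:**
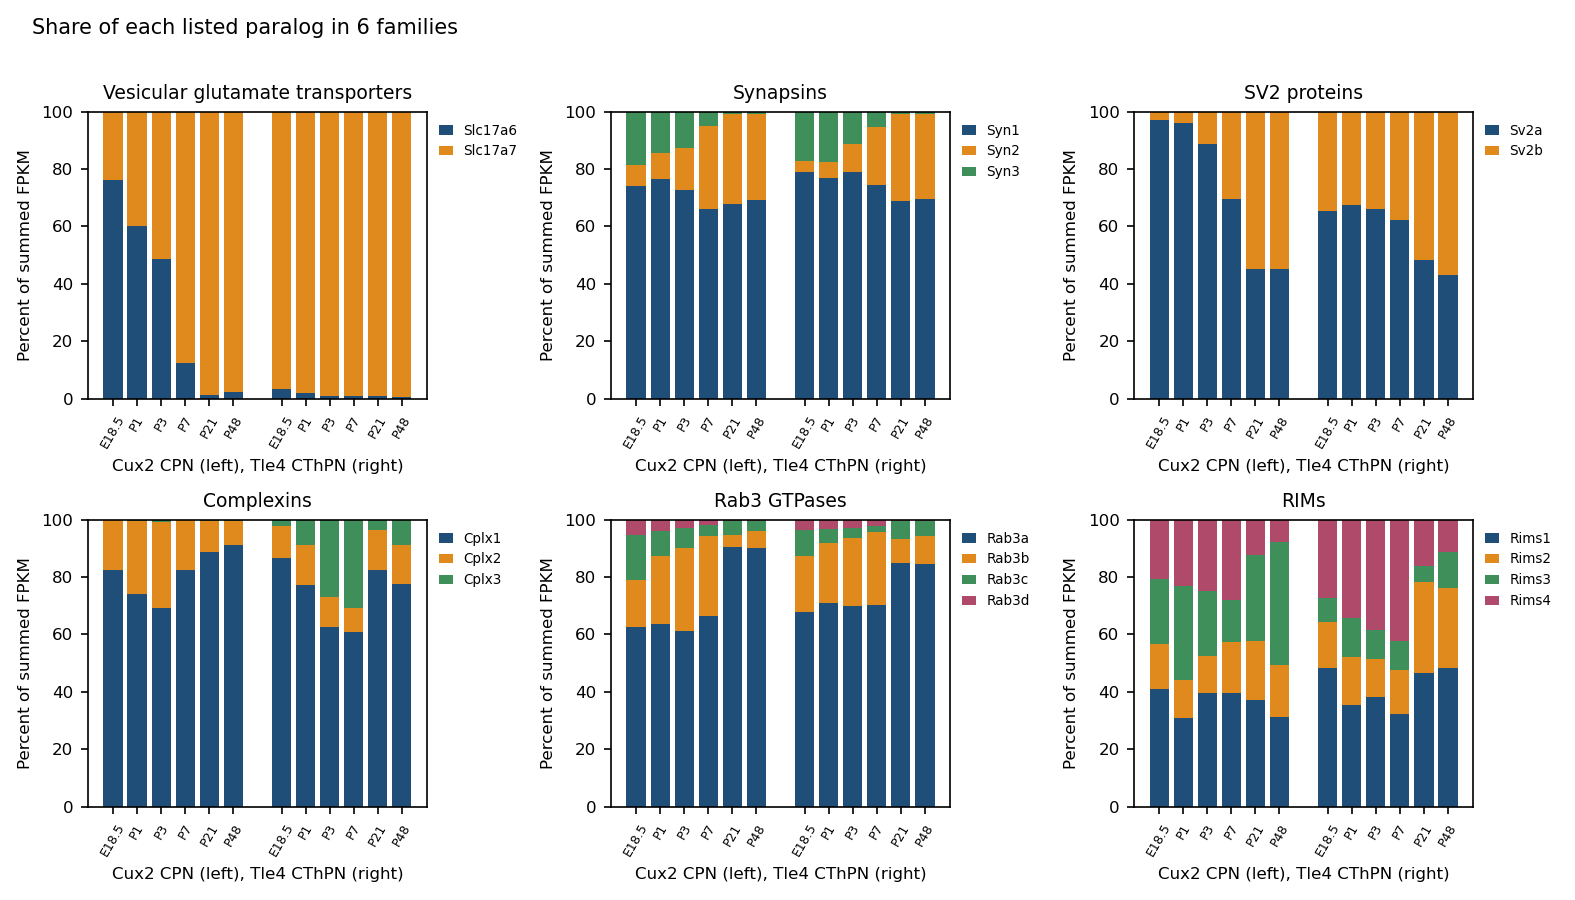
Stacked bars give each member's percent of the summed FPKM of the members of its family, for 6 families, at the 6 ages of Cux2 CPN (left bars) and Tle4 CThPN (right bars). Slc17a8, outside the symbol rule, is not in the transporter bar. Slc17a6 filled 76.1% of the transporter bar at E18.5 in Cux2 CPNs and 3.41% in Tle4 CThPNs, and Cplx3 (green, complexins) was visible in Tle4 CThPNs alone.

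Presynaptic genes outside the symbol rule were listed for comparison, 73 of 76. Of these, 19 rose in Cux2 CPNs (10.9% of the table), 15 in Tle4 CThPNs (9.19%) and 12 in both (6.55%). In each class 2 fell (7.04% and 5.46% of the table). Their median change was 0.86 and 0.67, close to the 0.89 and below the 1.08 of the members. By function, 10 and 9 of the 28 vesicle and fusion genes rose, 6 and 4 of the 24 active zone and channel genes, and 3 and 2 of the 21 endocytosis genes, in Cux2 CPNs and Tle4 CThPNs respectively. The last were near the shares of the table. Ranked by the smaller of their changes in the 2 classes, the first vesicle and fusion genes were Atp6v1g2, a subunit of the proton pump that powers vesicle filling, Cadps2, a priming factor, and Slc30a3, the vesicular zinc transporter. Slc30a3 was listed at 0.111, 0.289, 3.09, 57.6, 225 and 147 FPKM in Cux2 CPNs and at 0.221, 0.342, 0.575, 1.13, 8.29 and 2.25 FPKM in Tle4 CThPNs. It rose in both but reached 225 FPKM at P21 in the first and 8.29 FPKM in the second. Cacnb4, Cacnb2 and Lin7b led the active zone and channel genes by the same ranking and Pacsin1, Dnajc6 and Eps15 the endocytosis genes. Dnajc6 changed by 1.34 in Tle4 CThPNs and Eps15 by 1.26 in Cux2 CPNs, under the limit. Lin7c, Erc1 and Nrxn2 were lower late in both classes, as were Itsn1, Dnm2 and Picalm. On the postsynaptic side, 34 of 39 genes were listed and 12 rose in each class (10.9% and 9.19% of the table), 7 in both (6.55%). In Cux2 CPNs 2 fell, near the 7.04% of the table, and in Tle4 CThPNs 1 fell (5.46%). Their median change was 0.59 and 0.86. Camk2a, Cacng3 and Cnksr2 came first for rises when genes were ranked by the smaller of their changes in the 2 classes, and Dlgap4, Homer3 and Dlg2 for decreases.

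For the cell type lists, the members that rose in Cux2 CPNs and in Tle4 CThPNs were 5 and 7 of the 7 listed astrocyte markers, 6 and 6 of 7 oligodendrocyte markers, 1 and 3 of 3 endothelial markers, 0 and 0 of 5 microglia markers, 2 and 1 of 3 cycling and progenitor markers, and 4 and 2 of 12 interneuron markers. In Cux2 CPNs 4 interneuron markers also fell, as many as rose, and 1 cycling marker, and in Tle4 CThPNs 1 interneuron marker fell. Of 12 dissociation-induced genes, 10 and 9 rose. Over the table, 10.9% and 9.19% of genes rose, and 7.04% and 5.46% fell. Of the 5 glutamatergic neuron markers, Slc17a7 alone rose, in both classes, no callosal or corticothalamic layer marker rose, and 3 of the 5 callosal and 1 of the 5 corticothalamic markers fell in Cux2 CPNs. These lists moved over the same ages as the members, and their part in the members' rise was not tested.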

How the data were processed

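RNA was amplified with SMART-Seq v4 and sequenced from Nextera XT libraries, 2 for each of the 12 groups (24 in all). Reads were trimmed (Trimmomatic) and mapped by the authors to mouse build mm9, also called NCBIM37 (TopHat2), and Cuffdiff then gave FPKM. The option used to scale between libraries is not given in the sources used here. The deposited FPKM table holds 1 value per gene and group over both libraries, and each of its 9767 genes has a maximum of 10 FPKM or more. The study's methods give a lower bound on the reads of each library, the same for all groups. Since FPKM carry no count of reads, the depth of each group, its precision and the replicate spread are unknown. The scale is one per length, and a transcript shared by near-identical copies may be split.

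FPKM were analysed as log2(FPKM + 1) with numpy 2.4.6, pandas 2.3.3 and matplotlib 3.10.9 under Python 3.11.15. Groups followed the labels. Early was the mean of 4 ages and late of 2. A difference of 1.5 was called. The study set this size for pairwise comparisons together with a false discovery rate, which 1 value per group cannot give here, and log2(FPKM + 1) understates the change of low genes. Positions come from the GENCODE annotation of NCBIM37, which holds all 72 symbols, and promoters from RefSeq (GRCm38.p6). The 50 bases after each start were not used. The members and gene lists were chosen with earlier results of these data known. Apart from 2 members that are counted in the totals but not reported here, values in all 12 groups are given for the 5 most abundant members, the 5 largest shared rises and 5 largest shared decreases, the 4 largest lasting differences in each direction and the 4 largest changes of class difference. Further members are named by role. For each other list, up to 3 genes in each direction with the largest change of one sign in both classes are named, and Slc30a3 was given in full after its values were seen. Alternatives were a pseudocount of 0.1, 3 scalings, limits of 1 and 2, a minimum of 30 FPKM, and other early or late ages.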

Additional observations from a re-analysis of the deposited data

Results flagged for a closer look

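For 2 members, both late values lay below all early values in Cux2 CPNs and above all early values in Tle4 CThPNs. The share of all listed genes with this pattern was not counted, so the count is not read as a result about the members. The change of Slc17a6, which encodes the vesicular glutamate transporter VGLUT2, differed between the classes by -2.39 on the log2(FPKM + 1) scale, Cux2 minus Tle4. It was -0.51 in Cux2 CPNs and 1.87 in Tle4 CThPNs. The change of Snap29, a SNARE of intracellular membranes, differed by -0.93, with -0.77 in Cux2 CPNs and 0.16 in Tle4 CThPNs. In Cux2 CPNs Snap29 was 16.1, 15.4, 14.1, 12.7, 9.35 and 6.96 FPKM from E18.5 to P48, and in Tle4 CThPNs it was 6.47, 6.63, 7.38, 7.45, 8.20 and 7.61 FPKM. With 1 value per group, neither difference was tested.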

How the results depend on the processing

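No paired analysis was possible because the table holds 1 value per group and its columns carry no replicate number, and for the same reason no library could be left out. For the 26 members chosen by the rule for values in all groups, changes and class differences were recomputed under 9 settings, 908 values in all. Of the 350 whose reported value was past 1.5, 341 stayed past it and none turned direction. Not all of these could move. The minimum of 30 FPKM alters no value, other early ages no late difference, and other late ages no early difference. Many of the 26 members were also chosen for large values, so this is no independent check. The sign turned for 12 values of 7 members, all from a reported size of 0.31 or less, among them the change of Cplx3 in Tle4 CThPNs (-0.04, or 0.67 without P7 and 0.56 with P48 alone). Over all members, 8 had a change past 1.5 that some setting took under it: Pclo, Rab3a, Stx1a, Rims1, Rph3a, Stx4a, Syn1 and Syp. At a limit of 1, 37 members rose in Tle4 CThPNs and 30 in both classes, 4 fell in Cux2 CPNs and 3 in both, and the class difference changed for 11. At a limit of 2, 1 member was higher in Cux2 CPNs early and late, and 0 fell in either class. With a minimum of 30 FPKM, 0 members fell in Tle4 CThPNs and the class difference changed for 2. In Cux2 CPNs 2 members fell with a pseudocount of 0.1, 2 without E18.5 and 2 with P48 alone as late, and 1 fell in both classes with that pseudocount and 1 with P48 alone. The other recomputed counts of rises, falls and class differences between early and late stayed within 1.5 times, as did those of the largest step. Counts at single ages or intervals, by highest age and of late values above or below all early values were not recomputed. For the rises, falls and class differences, the shares of the table were not counted under these settings. The counts therefore show no excess over the table. Scaling to equal sums of genes longer than 300 nt, added after the data were seen, moved the table's median change to -0.09 in Cux2 CPNs and -0.11 in Tle4 CThPNs. The members' medians were then 0.78 and 0.96, and 19 still rose in both classes. The largest step lay between P7 and P21 for 33 members in Cux2 CPNs and 47 in Tle4 CThPNs under that scaling, and for 32 and 47 with upper quartile scaling, against 41 and 43 as reported. In Cux2 CPNs the share of the members was then below that of the table. Values under about 1 FPKM, such as those of Syt17 and Cplx3 in the class with less of them, rest on few reads of unknown number.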
